A study of Mus musculus with 18 samples.

Results

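The mouse genome encodes a family of Wnt ligands, secreted and lipid-modified glycoproteins, of which 10 are described here: Wnt3, Wnt3a, Wnt4, Wnt5a, Wnt5b, Wnt6, Wnt7b, Wnt8a, Wnt9a and Wnt11. They were matched by name to the 55401 gene IDs of the deposited tables. All 10 matched exactly 1 ID, and all 10 were among the 17795 genes that passed a minimum-count filter and were tested.

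The study followed RHKI, an E14Tg2a mouse embryonic stem cell line with an HA-Rnaseh1 knock-in, through differentiation into gastruloids, which are aggregates of stem cells that form parts of an embryo-like body axis. Doxycycline (Dox) induces the knocked-in RNase H1, the nuclease that removes RNA from RNA:DNA hybrids (R-loops), and the comparison of induced with uninduced cells asks what removal of these hybrids does to differentiation. The groups were Dox and control at day 0 (0 h, stem cells), Dox and control at day 3 (72 h) and Dox and control at day 5 (120 h), with 3 libraries each and 18 in all. According to the labels, treated stem cells received 500 ng/ml of Dox over 48 h ahead of aggregation, and no label tells whether it was kept on later. Control cells carried the same knock-in and received no Dox according to the labels, so an effect of Dox itself and one of RNase H1 cannot be told apart. All groups come from 1 cell line, and its cells were grown in 2i/LIF medium, which contains the GSK3 inhibitor CHIR-99021, an activator of beta-catenin signalling, together with the MEK inhibitor PD0325901. Each replicate number is also given as a batch, and nothing states that the 3 libraries of a group came from separate cultures, so p-values here measure the spread between these libraries, which may be technical.

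Wnt proteins are acylated by the enzyme Porcn, carried to the cell surface by Wls and bound by Frizzled receptors with the coreceptors Lrp5 and Lrp6 or with Ror and Ryk proteins. In the canonical branch the signal stabilises beta-catenin, which enters the nucleus with TCF/LEF factors. In the other branches, for which Wnt5a, Wnt5b and Wnt11 are best known, it acts on cell polarity and movement. In the mouse embryo Wnt3 is needed to form the primitive streak, Wnt3a and Wnt5a to extend the tail end of the axis, and Wnt8a is expressed in the posterior epiblast and streak.

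Promoter sequences were looked up for the ligands, and 7 of the 10 had an entry in the RefSeq promoter table (GRCm38.p6). Wnt5a, Wnt7b and Wnt8a had none. The window used here is the 250 bases before an annotated start. Printed below are one window each for Wnt11, Wnt3 and Wnt5b, 3 ligands whose transcripts rose together by day 3, and for Wnt3a, whose transcripts did not pass the test at that step. They lie at chr7:98834862-98835111 (plus strand, Wnt11), chr11:103773925-103774174 (plus strand, Wnt3), chr6:119544348-119544597 (minus strand, Wnt5b) and chr11:59290752-59291001 (minus strand, Wnt3a). Capitals mark matches, on either strand, to the TCF/LEF core CTTTGA, the TATA box TATAAA, the GC box GGGCGG and the T-box site AGGTGTGA.
Wnt11: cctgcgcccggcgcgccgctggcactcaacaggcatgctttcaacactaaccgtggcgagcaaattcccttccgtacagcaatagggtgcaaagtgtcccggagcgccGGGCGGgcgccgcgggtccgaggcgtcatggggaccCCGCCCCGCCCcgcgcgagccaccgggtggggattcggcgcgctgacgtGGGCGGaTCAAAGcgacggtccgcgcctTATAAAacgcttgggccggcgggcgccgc
Wnt3: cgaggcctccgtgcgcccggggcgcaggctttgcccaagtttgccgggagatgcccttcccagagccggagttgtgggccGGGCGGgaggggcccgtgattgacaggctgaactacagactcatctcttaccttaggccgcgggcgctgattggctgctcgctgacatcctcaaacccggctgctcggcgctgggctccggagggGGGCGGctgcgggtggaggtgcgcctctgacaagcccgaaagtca
Wnt5b: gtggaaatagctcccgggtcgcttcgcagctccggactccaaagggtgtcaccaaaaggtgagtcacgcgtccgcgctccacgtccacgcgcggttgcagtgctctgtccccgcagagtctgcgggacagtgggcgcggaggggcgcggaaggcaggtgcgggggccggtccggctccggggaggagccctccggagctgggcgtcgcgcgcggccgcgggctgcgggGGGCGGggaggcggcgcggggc
Wnt3a: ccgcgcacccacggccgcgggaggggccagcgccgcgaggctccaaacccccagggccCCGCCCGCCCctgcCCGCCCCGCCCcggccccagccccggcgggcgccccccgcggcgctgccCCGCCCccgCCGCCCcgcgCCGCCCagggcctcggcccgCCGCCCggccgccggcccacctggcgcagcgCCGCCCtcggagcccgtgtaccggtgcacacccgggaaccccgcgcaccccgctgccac

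The Wnt11 window alone among these 4 held the TCF/LEF core, on the minus strand at positions -50 to -45 from the start, and the TATA box, at -29 to -24. Over all 32851 windows of the table, 13.8% held the TCF/LEF core, 12.4% the TATA box, 32.7% the GC box and 1.12% the T-box site. GC boxes were present in 8 of the 10 windows of the 7 ligands (Wnt5b has 3 annotated starts and Wnt11 has 2), and the T-box site in 0. Some of the GC boxes in the Wnt3a, Wnt4 and Wnt11 windows overlapped one another, and none overlapped another motif. A further Wnt5b start held the TCF/LEF core at -71 to -66. The share of G and C was 87.6% in Wnt3a, 85.2% in Wnt4, 84.4% in Wnt9a, 79.6% in Wnt6 and 68.0% in Wnt3, against a median of 52.4% over all windows (quartiles 45.2% and 61.2%). It was 75.2%, 53.2% and 55.6% at the 3 starts of Wnt5b and 70.8% and 56.8% at the 2 starts of Wnt11, so 3 of the 10 windows lay within those quartiles. Gene-level counts do not show which start was used.

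The libraries held between 25748897 and 38128366 estimated counts assigned to genes. Levels of 1 gene are compared between libraries as CPM, counts relative to a library size adjusted by trimmed mean of M values (TMM) factors. Levels of different genes are compared as TPM, the deposited abundance that takes transcript length into account. Rnaseh1 averaged 153 ± 18 CPM in Dox and 28.3 ± 2.3 CPM in control cells at day 0, 68.1 ± 2.1 and 23.5 ± 1.1 CPM at day 3, and 57.1 ± 3.3 and 19.7 ± 0.37 CPM at day 5 (SD, n = 3 each), so the libraries followed their labels. Stem cell markers (Pou5f1, Nanog and 5 others) summed to 5230 ± 93 CPM in Dox and 5220 ± 12 CPM in control cells at day 0. In control gastruloids that sum was 1460 ± 72 CPM at day 3, with Pou5f1 at 1130 ± 66 and Nanog at 249 ± 12 CPM. At day 5 it was 278 ± 3.8 CPM, nearly all of it Sox2, at 267 ± 3.7 CPM against 30 ± 0.61 CPM at day 3. Pou5f1 averaged 3.19 ± 1.2 CPM and Nanog 1.22 ± 0.34 CPM in control at day 5. Primitive streak markers (T, Eomes and 4 others) summed to 582 ± 71 CPM in Dox and 767 ± 120 CPM in control at day 3. Their sum in control was 23.4 ± 3 CPM at day 0, where Gsc alone had 14.8 ± 3.5 CPM, against 3.65 ± 0.67 CPM at day 3. Neural tube markers summed to 1090 ± 50 CPM in Dox and 1170 ± 13 CPM in control at day 5. Presomitic mesoderm markers (Tbx6, Msgn1, Hes7, Dll3 and Ripply2) summed to 4.96 ± 0.84 CPM in Dox and 3.65 ± 0.11 CPM in control at day 5. Most of this was Dll3, at 4.36 ± 0.74 and 3.06 ± 0.05 CPM. Msgn1 was at 0 counts in every day 0 and day 5 library and averaged at most 0.0111 CPM at day 3. In day 0 Dox replicate 2, 4.76% of counts fell on 1 ribosomal RNA gene, against 0.144% to 0.483% in the other libraries.

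Wnt ligand transcripts were scarce in stem cells, abundant at day 3, mostly as a single ligand, and spread over many ligands at day 5. The 10 ligands together averaged 8.24 ± 1.88 TPM in Dox and 8.48 ± 1.18 TPM in control cells at day 0, 216 ± 12.6 and 242 ± 5.77 TPM at day 3, and 16.3 ± 0.924 and 16.1 ± 0.709 TPM at day 5 (SD, n = 3 each). Wnt8a made up 83.9% and 84.5% of that sum at day 3, and without it the day 3 sums were 34.8 ± 1.03 TPM in Dox and 37.4 ± 3.32 TPM in control gastruloids. At day 0 Wnt7b led with 62.9% ± 2.8 of the sum in Dox and 50.7% ± 2.6 in control cells. At day 5 Wnt5a led in control gastruloids with 29.3% ± 1.4, while in Dox gastruloids Wnt5a stood at 20.4% ± 0.98 and Wnt7b at 18.5% ± 3.1.

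**Figure D1:**
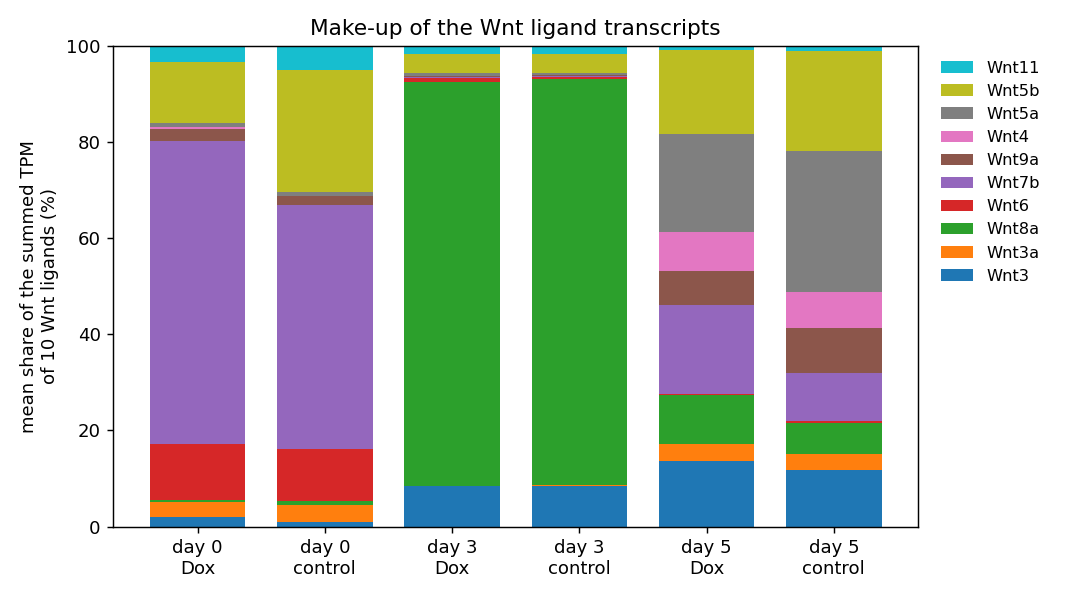
Mean share (%) of each ligand in the summed TPM of the 10 Wnt ligands, one stacked bar per group (3 libraries each), Dox left of control at each day. Wnt7b fills most of the day 0 bars (62.9% in Dox, 50.7% in control), Wnt8a most of the day 3 bars (83.9% and 84.5%), and no ligand exceeds 29.3% at day 5.

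The order of the levels was read from TPM with the range over 3 libraries. In day 0 control cells Wnt7b (4.32 ± 0.82 TPM) and Wnt5b (2.09 ± 0.36 TPM) stood apart from each other and from Wnt6 (0.957 ± 0.51 TPM). From Wnt6 down through Wnt11, Wnt3a, Wnt9a, Wnt3, Wnt8a and Wnt5a, every neighbouring pair overlapped, and Wnt4 came last at 0.01 ± 0.01 TPM. In day 3 control gastruloids Wnt8a (205 ± 5.1 TPM), Wnt3 (20.3 ± 2 TPM), Wnt5b (9.69 ± 1.2 TPM), Wnt11 (3.79 ± 1.1 TPM) and Wnt6 (1.35 ± 0.19 TPM) followed each other without overlap. Below them Wnt5a overlapped Wnt9a, and Wnt9a overlapped Wnt3a. Wnt7b, first at day 0, was last at 0.0633 ± 0.032 TPM. In day 5 control gastruloids Wnt5a (4.7 ± 0.04 TPM) and Wnt5b (3.35 ± 0.12 TPM) led without overlap. Wnt3, Wnt7b and Wnt9a overlapped as neighbours between 1.42 and 2.13 TPM, and Wnt4 overlapped Wnt8a below them. In day 5 Dox gastruloids the ranges of Wnt5a (3.34 ± 0.25 TPM), Wnt7b (3.03 ± 0.62 TPM) and Wnt5b (2.84 ± 0.31 TPM) overlapped. The deposited TPM of Wnt5a, Wnt6, Wnt7b and Wnt11 rest on an estimated isoform mix, with mean transcript lengths between 634 (Wnt11) and 5980 bases (Wnt5a) over genes and libraries, so their place in the order depends on that estimate.

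**Figure D2:**
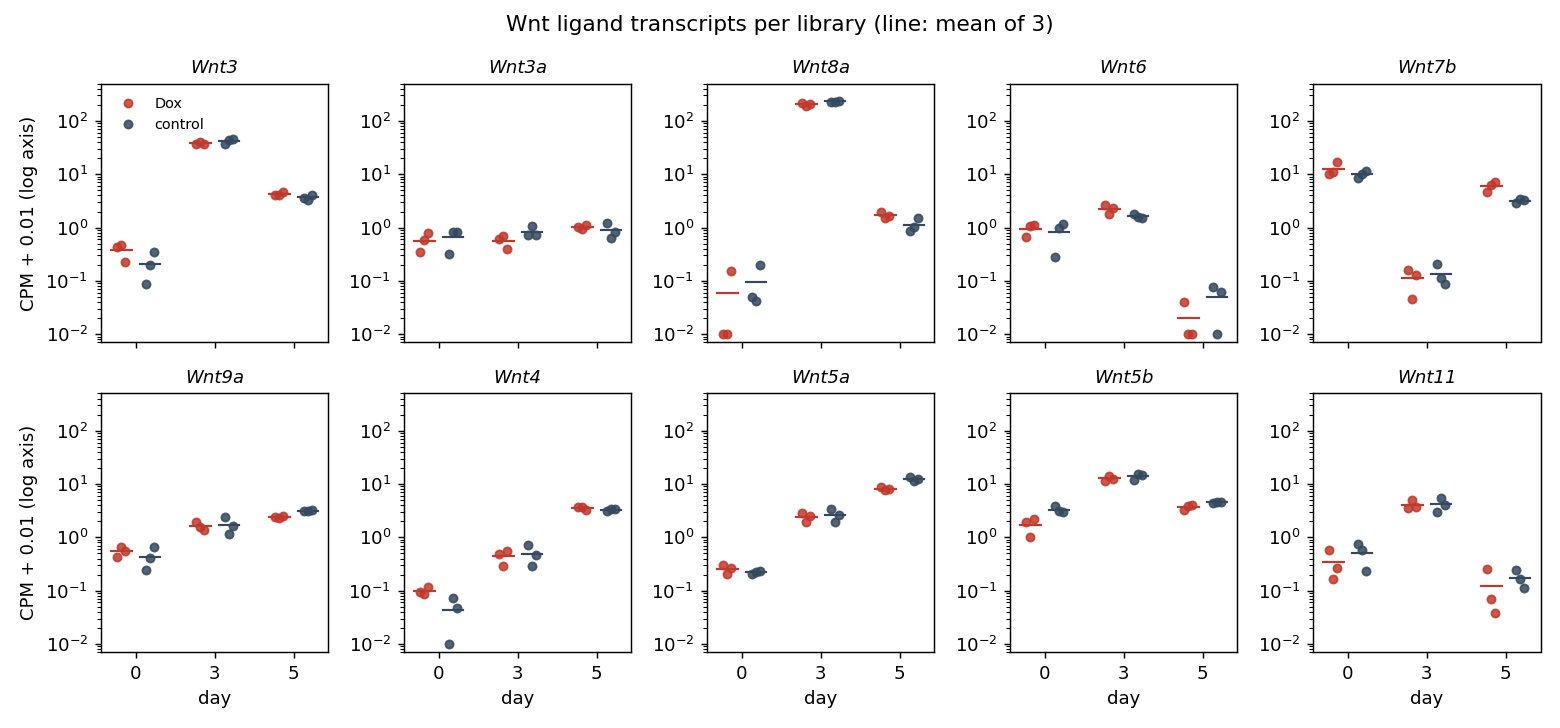
CPM + 0.01 of each ligand (log axis) against day, 1 point per library, Dox (red) left of control (dark) at each day, with a line at the mean of 3 libraries. Wnt8a and Wnt3 peak at day 3 (231 and 42.4 CPM in control), Wnt7b is lowest there (0.126 CPM in control), and Wnt5a and Wnt4 are highest at day 5 (12.3 and 3.27 CPM in control).

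In control cells 8 of the 10 ligands rose, Wnt7b fell and Wnt3a did not pass the test (edgeR quasi-likelihood test, Benjamini-Hochberg adjusted p below 0.05 over all genes). Of all genes tested, 73.5% were called at this step, 37.2% higher and 36.3% lower, so a count of 9 among 10 says little by itself, and the sizes are what separate the ligands. The median log2 change over the 10 ligands was 2.56, against 0.016 over all genes tested. In whole gastruloids, more cells of a type and more RNA per cell cannot be told apart.

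Wnt8a had 227, 227 and 240 CPM in the day 3 control libraries, against 0.039, 0.0312 and 0.187 CPM in the day 0 control libraries. Every day 3 library stood far above every day 0 library, with a log2 change of 11.38 ± 0.22 SE (edgeR adjusted p = 2.2e-18). Its day 0 level rests on 7 counts in 3 libraries, so the size is loosely fixed: the log2 change was 12.55 without day 0 control replicate 3, 10.93 without day 0 control replicate 2, and 10.35 on log2(TPM + 0.1). Wnt3, the ligand required for streak formation, had 37.1, 43.5 and 46.5 CPM at day 3, against 0.078, 0.187 and 0.337 CPM at day 0 in control. It rose 207-fold (log2 7.69 ± 0.21, edgeR adjusted p = 2.1e-16). Wnt3a, its relative in the later tail bud, had 0.73, 1.05 and 0.717 CPM at day 3 and 0.312, 0.81 and 0.824 CPM at day 0. Those groups overlapped (log2 0.35 ± 0.36, edgeR adjusted p = 0.39), and Wnt3a stayed near or below 1 CPM in all groups, between 0.312 and 1.22 CPM over the 18 libraries.

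The ligands best known from the polarity branch rose by smaller factors between day 0 and day 3 in control. Wnt5a reached 2.66 ± 0.7 CPM at day 3, against 0.213 ± 0.016 CPM at day 0 (12.2-fold), Wnt11 reached 4.2 ± 1.3 against 0.509 ± 0.26 CPM (8.23-fold), and Wnt5b reached 14 ± 1.9 against 3.31 ± 0.48 CPM (4.23-fold, SD, n = 3 each). Wnt9a rose 3.99-fold to 1.73 ± 0.64 CPM at day 3, against 0.425 ± 0.2 CPM at day 0. Wnt6, known from epithelia, rose 1.98-fold (edgeR adjusted p = 0.024), but the call was lost without day 0 control replicate 1 (0.12) or without day 3 control replicate 1 (0.063). Wnt4, known from kidney and gonad, had 50 counts in the day 3 control libraries and 3 in the day 0 control libraries, a ratio of 13 with a 95% counting interval of 4.21 to 65.3.

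Wnt7b ran the other way. It had 0.199, 0.103 and 0.0768 CPM at day 3, against 8.5, 10.3 and 11.6 CPM at day 0 in control. That is 81.5-fold lower (log2 -6.35 ± 0.33, edgeR adjusted p = 2.6e-12), with 13 counts in all at day 3. In the Dox arm the day 3 against day 0 step called the same 9 ligands in the same directions, with 72.6% of all genes called, 36.7% higher and 35.9% lower. Wnt3 rose 104-fold there. Wnt8a had 220, 192 and 210 CPM at day 3 in Dox, against 0, 0 and 0.146 CPM at day 0, where all 4 counts lay in replicate 3, so no fold is given.

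Between day 3 and day 5 the streak ligands fell and a different group rose. In control gastruloids 4 ligands rose and 5 fell, with 64.8% of all genes called, 31.7% higher and 33.1% lower. Wnt8a had 0.847, 1.01 and 1.49 CPM at day 5, against 227, 227 and 240 CPM at day 3, a 201-fold drop (log2 -7.65 ± 0.15, edgeR adjusted p = 7.6e-18). Wnt3 fell 11.4-fold to 3.69 ± 0.43 CPM and Wnt5b 3.08-fold to 4.54 ± 0.066 CPM. Wnt11 fell 25.6-fold to 0.166 ± 0.067 CPM, below its day 0 mean of 0.509 CPM. Wnt6 fell 36.5-fold, with 4 counts in the day 5 control libraries and 172 in the day 3 control libraries.

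The rising ligands at day 5 in control were Wnt7b, Wnt4, Wnt5a and Wnt9a. Wnt7b, which is expressed in the developing nervous system and in lung and kidney epithelia, had 2.85, 3.42 and 3.27 CPM at day 5, against 0.199, 0.103 and 0.0768 CPM at day 3 (25.6-fold, edgeR adjusted p = 1.3e-09). Wnt4 rose 6.92-fold to 3.27 ± 0.19 CPM, Wnt5a 4.64-fold to 12.3 ± 1.1 CPM and Wnt9a 1.83-fold to 3.14 ± 0.085 CPM. Wnt3a again overlapped between the days (log2 0.09 ± 0.34, edgeR adjusted p = 0.85). In the Dox arm 4 ligands rose and 5 fell, with 65.1% of all genes called, 32.2% higher and 32.9% lower. The calls and directions were those of control except for Wnt3a and Wnt9a. Wnt3a was called higher in Dox, at 1.03, 0.915 and 1.1 CPM at day 5 against 0.595, 0.678 and 0.391 CPM at day 3 (log2 0.88 ± 0.36, edgeR adjusted p = 0.04). That call was lost without any one of 5 of the 6 libraries, with adjusted p up to 0.16 (without day 3 Dox replicate 3). Wnt9a did not pass in Dox (log2 0.57 ± 0.25, edgeR adjusted p = 0.057). It passed with DESeq2 (0.044), limma-voom (0.037), library size alone (0.043) and without day 3 Dox replicate 1 (0.042), and lay at the threshold with relative log expression factors (0.05). Wnt6 fell in Dox to 1 count in 3 libraries at day 5, against 216 at day 3, a ratio of 228 with a 95% counting interval of 40.5 to 9060.

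At day 0 Dox lowered 1 ligand of 10, Wnt5b, while the other 9 did not pass the test. Wnt5b had 1.91, 1.01 and 2.19 CPM in Dox cells, against 3.86, 3.12 and 2.96 CPM in control cells. All Dox libraries lay below all control libraries, and Dox replicate 2 was the lowest. The log2 change was -0.95 ± 0.21, a 1.93-fold drop (edgeR adjusted p = 0.037), on 132 counts in Dox and 278 in control. Of all genes tested 1.04% were called at day 0, 0.747% lower and 0.292% higher. With the replicate number as a block 313 genes were called, against 185 without it. The call for Wnt5b was lost without control replicate 1 (log2 -0.83, edgeR adjusted p = 0.13), without control replicate 2 (-0.99, 0.055) and without Dox replicate 2 (-0.68, 0.13), the library with the ribosomal RNA reads.

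Wnt5b lies at chr6:119432531-119544347 on the minus strand (GRCm38), and the gene Fbxl14 lies inside it on the opposite strand, with no exonic base shared. Fbxl14, which encodes an F-box protein of a ubiquitin ligase, also fell with Dox at day 0, by 0.21 on the log2 scale (± 0.05 SE, edgeR adjusted p = 0.037), and had 53614 counts over the 18 libraries against 3968 for Wnt5b. The counts are RSEM estimates for annotated transcripts, and the strand setting and annotation release behind them are not given in the sources used here. The part of Fbxl14 in the Wnt5b result was not tested. Trophoblast markers (Gata3, Tfap2c, Krt7, Elf5 and Prl3d1) summed to 94.6 ± 8.9 CPM in Dox and 77.4 ± 7.2 CPM in control cells at day 0, with ranges of 85.7 to 103 and 70.9 to 85.1 CPM and 0 of the 3 tested members called. Tfap2c made up most of each sum, at 91.4 ± 9.4 CPM in Dox and 74.2 ± 7.9 CPM in control cells. Gata3 averaged 2.66 CPM in Dox and 2.81 CPM in control cells, and Krt7 0.446 and 0.31 CPM. Prl3d1 was at 0 counts in both groups and Elf5 in control cells. Their part in the Wnt5b result was not tested.

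The other 9 ligands had day 0 log2 changes that did not pass the test. Wnt7b had 10.2, 10.9 and 16.8 CPM in Dox and 8.5, 10.3 and 11.6 CPM in control cells, overlapping groups with a log2 change of 0.31 ± 0.2. Wnt3 had 0.415, 0.468 and 0.219 CPM in Dox and 0.078, 0.187 and 0.337 CPM in control cells (0.84 ± 0.42, edgeR adjusted p = 0.45). Wnt4 and Wnt8a were at 7 and 4 counts in all 3 Dox libraries and at 3 and 7 counts in the control libraries, levels at which a difference was not detectable. The median log2 change over the 10 ligands was 0.22, against -0.001 over all genes tested.

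At day 3, when the summed TPM of the 10 ligands was highest, mostly as Wnt8a, none of the 10 passed the test between Dox and control. edgeR called 3 genes of 17795 (0.0169%) and DESeq2 6, and among the 10 ligands 0 had an unadjusted p below 0.05 and DESeq2 called 0. Wnt8a had 220, 192 and 210 CPM in Dox gastruloids, against 227, 227 and 240 CPM in control gastruloids. The groups did not overlap, but the log2 change of -0.16 ± 0.1 did not pass the test (edgeR adjusted p = 1). Wnt3 had 36.5, 40.2 and 37.5 CPM in Dox and 37.1, 43.5 and 46.5 CPM in control (-0.16 ± 0.12), overlapping groups. Wnt3a had 0.595, 0.678 and 0.391 CPM in Dox and 0.73, 1.05 and 0.717 CPM in control, and Wnt6 had 2.59, 1.82 and 2.35 CPM in Dox and 1.76, 1.57 and 1.48 CPM in control. These also stood apart without passing the test, with log2 changes of -0.6 ± 0.36 and 0.49 ± 0.34. The share of all genes that stood apart was not counted on any day, so standing apart is description only. For Wnt5a, Wnt5b, Wnt9a, Wnt4, Wnt7b and Wnt11 the log2 changes lay between -0.19 and -0.07. Streak markers summed lower in Dox (501 to 629 CPM) than in control (654 to 892 CPM) with 0 of 6 members called (3 at an unadjusted p below 0.05), and their part in the Wnt8a and Wnt3 values was not tested.

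At day 5 Dox changed 2 ligands in opposite directions. Wnt7b rose and Wnt5a fell, while 4.74% of all genes were called, 2.39% higher and 2.34% lower. Wnt7b had 4.59, 6.28 and 7.16 CPM in Dox gastruloids, against 2.85, 3.42 and 3.27 CPM in control gastruloids. Each Dox library exceeded each control library, and the spread was wider in Dox. The log2 change was 0.92 ± 0.21, or 1.89-fold (edgeR adjusted p = 0.016), on 605 counts in Dox and 319 in control. Wnt5a had 8.64, 7.81 and 7.91 CPM in Dox gastruloids, against 13.4, 11.2 and 12.2 CPM in control gastruloids. The groups did not overlap, with a log2 change of -0.59 ± 0.15, or 1.51-fold lower (edgeR adjusted p = 0.029), on 814 and 1222 counts.

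With 5 libraries in place of 6 these day 5 calls were mostly lost, while the sizes moved little. Wnt5a lost its call without each of the 6 libraries in turn, with adjusted p between 0.05 and 0.14 and log2 changes of -0.66 to -0.52. Wnt7b lost it without control replicate 1 (edgeR adjusted p = 0.068), control replicate 3 (0.067), Dox replicate 2 (0.067) or Dox replicate 3 (0.11), at log2 changes of 0.77 to 1.08 over all 6 omissions. Wnt7b lies at chr15:85535437-85582473 (minus strand) and shares 324 exonic bases with the antisense gene AU022754, which had at most 7 counts in a library. Wnt5a lies at chr14:28504750-28527448 (plus strand) and shares 358 exonic bases with the antisense gene Gm2670, which had at most 4 counts.

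**Figure D3:**
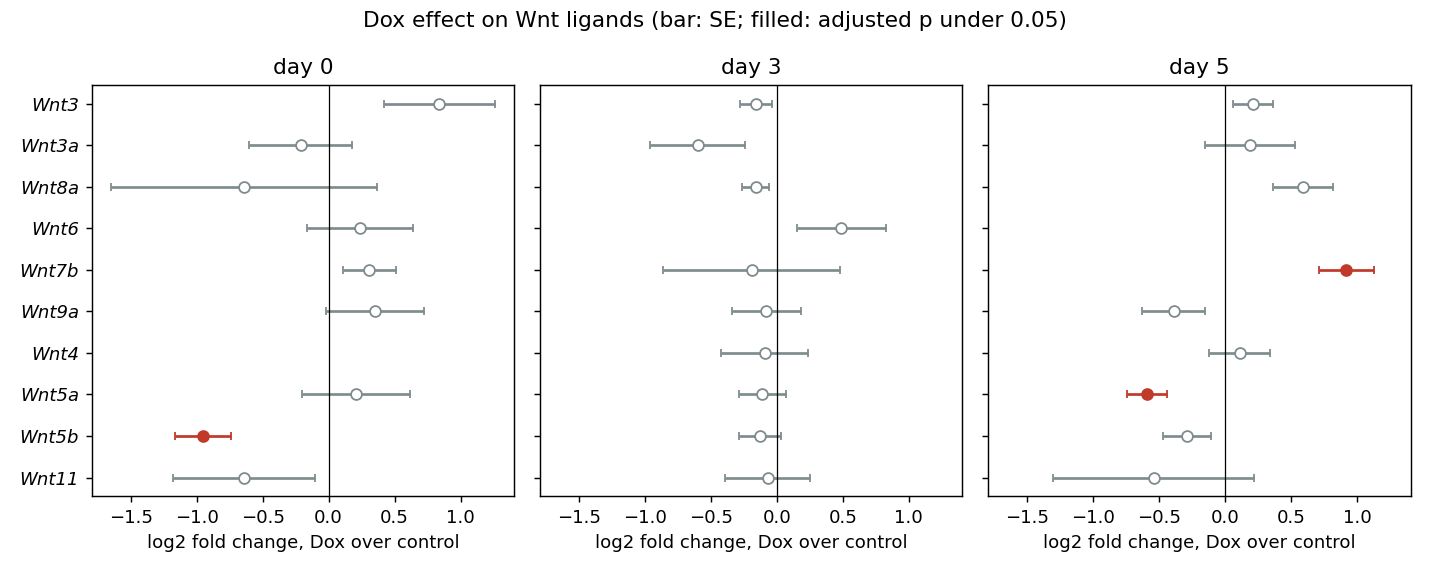
Log2 fold change of Dox over control for each ligand at day 0, 3 and 5, with bars of 1 SE from the edgeR fit; filled red points passed an adjusted p of 0.05. Wnt5b is lower at day 0 (-0.95), Wnt7b higher (0.92) and Wnt5a lower (-0.59) at day 5, and none passed at day 3. Wnt4 at day 0 and Wnt6 at day 5 are left out, with at most 3 counts in any library.

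Of the other 8 ligands at day 5, Wnt8a, Wnt9a and Wnt5b stood apart without passing the test. How many of all genes stood apart was not counted, so this separation is not read as an effect. Wnt8a had 1.98, 1.52 and 1.67 CPM in Dox and 0.847, 1.01 and 1.49 CPM in control gastruloids (log2 0.59 ± 0.23, edgeR adjusted p = 0.18). It passed with DESeq2 (adjusted p = 0.025) and in edgeR without the count filter (0.024). Wnt9a had 2.43, 2.29 and 2.48 CPM in Dox and 3.08, 3.11 and 3.24 CPM in control (-0.39 ± 0.24, edgeR adjusted p = 0.48). Wnt5b, lowered at day 0, had 3.19, 3.93 and 4.01 CPM in Dox and 4.47, 4.53 and 4.6 CPM in control at day 5 (-0.29 ± 0.18, edgeR adjusted p = 0.49). Wnt3, Wnt3a and Wnt4 had log2 changes of 0.21, 0.19 and 0.11. Wnt11 and Wnt6 held 11 and 1 counts in all 3 Dox libraries and 16 and 4 in the control libraries, too few to show a difference. The median log2 change over the 10 ligands was -0.09, against 0.003 over all genes.

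Markers of several tissues differed at day 5 beside Wnt7b and Wnt5a. Of all genes tested, 4.74% were called at day 5, 2.39% higher and 2.34% lower. Of the dorsal neural tube list, 3 of 6 tested members rose with Dox (Msx3, Pax3 and Pax7), and the list summed to 82.3 to 89.5 CPM in Dox and 53.8 to 60.9 CPM in control. Of the somite list, 2 of 6 fell (Pax1 and Meox1), with sums of 66.2 to 87.2 CPM in Dox and 101 to 119 CPM in control. Of the neural tube list, 2 of 5 fell (Olig2 and Pax6), with sums of 1030 to 1130 CPM in Dox and 1160 to 1180 CPM in control. Olig2 was low (0.178 ± 0.11 CPM in Dox, 1.33 ± 0.39 CPM in control), and DESeq2 called Pax6 and Irx3 but not Olig2. Sox1 of that list went the other way without a call, at 280 ± 4.7 CPM in Dox and 236 ± 9.7 CPM in control. Dbx1 averaged 358 ± 40 and 367 ± 22 CPM. The intermediate and lateral mesoderm list summed to 3.46 to 3.54 CPM in Dox and 5.12 to 5.2 CPM in control, with 0 of 3 called. Pax2 made up most of that sum, at 2.88 ± 0.18 CPM in Dox and 3.98 ± 0.18 CPM in control. Streak markers summed to 4.1 to 4.78 CPM in Dox and 6.54 to 8.84 CPM in control, with 0 of 6 called. Foxa2 of the endoderm list fell (log2 -1.34 ± 0.25, edgeR adjusted p = 0.0028) and Nanog of the stem cell list rose (0.79 ± 0.19, edgeR adjusted p = 0.017). Both were low, Foxa2 at 0.71 ± 0.095 CPM in Dox and 1.78 ± 0.52 CPM in control, and Nanog at 2.08 ± 0.49 and 1.22 ± 0.34 CPM. The stem cell list summed to 270 ± 7.4 CPM in Dox and 278 ± 3.8 CPM in control. Evx1 of the streak list was at 0 counts in both day 5 groups, and the other members of these 7 lists had counts in both. Their part in the ligand changes was not tested.

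The Dox effect itself was compared between days. No ligand passed: edgeR called 0 of 10 for day 3 minus day 0 (0.0562% of all genes, 10 without and 35 with the replicate number as a block), 0 for day 5 minus day 3 (0.82%, of which 0.354% higher and 0.466% lower) and 0 for day 5 minus day 0 (3.28%). At an unadjusted p below 0.05 the counts were 2, 1 and 1 of 10, and DESeq2 called 0, 1 and 0. The nearest were Wnt5b, whose effect differed by 0.82 ± 0.27 between day 3 and day 0 (edgeR adjusted p = 0.35), and Wnt8a, whose effect differed by 0.75 between day 5 and day 3 (edgeR adjusted p = 0.28). Wnt8a passed that test with DESeq2 (adjusted p = 0.015) and in edgeR without the count filter (0.0091). An effect past the threshold on 1 day is therefore not shown to be particular to that day. These comparisons share their libraries with the tests within days.

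The other 9 Wnt genes summed to 0.437 TPM in Dox and 0.29 TPM in control at day 0, and to 1.02 TPM in both groups at day 3. At day 5 some were as high as listed ligands. Wnt7a averaged 3.1 ± 0.9 TPM in Dox and 1.88 ± 0.55 TPM in control, against 3.03 ± 0.62 and 1.61 ± 0.087 TPM for Wnt7b. Wnt16 averaged 0.933 ± 0.25 and 1.72 ± 0.49 TPM. The shares and order given above cover the 10 listed ligands alone. Wnt1, Wnt7a, Wnt9b and Wnt16 passed the count filter, and their summed TPM with the rest was 4.74 ± 0.985 in Dox and 4.21 ± 0.835 in control gastruloids at day 5 (SD, n = 3). None of these 4 passed between Dox and control on any day in edgeR or DESeq2, with 2 at an unadjusted p below 0.05 at day 5. Wnt7a, the closest relative of Wnt7b, had 3.99, 7.32 and 7.16 CPM in Dox and 4.85, 3.14 and 3.24 CPM in control at day 5, overlapping groups (log2 0.72 ± 0.33, edgeR adjusted p = 0.29). Wnt1, a dorsal neural tube ligand, had 0.76, 0.61 and 0.318 CPM in Dox and 0.305, 0.507 and 0.334 CPM in control at day 5, and was at 0 counts in every day 3 library. Several ligands have a family neighbour on the chromosome. Wnt9b lies 24328 bases from Wnt3 on the opposite strand, and had 1.2, 1.18 and 1.25 CPM at day 3 against 0 counts at day 0 in control. Wnt9a and Wnt3a are divergent neighbours 16175 bases apart, and between day 0 and day 3 in control the first rose and the second did not pass.

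Genes that release or inactivate Wnt proteins changed with time, and none passed with Dox. Wls, the carrier, averaged 4.34 ± 2.2 CPM at day 0, 33.1 ± 2.8 CPM at day 3 and 113 ± 4.4 CPM at day 5 in control (SD, n = 3 each), and rose at both steps (7.69-fold and 3.42-fold). Trabd2b, a metalloprotease that cleaves Wnt proteins, also rose at both steps, with 0.013 ± 0.023 CPM at day 0, 2.06 ± 0.41 CPM at day 3 and 12 ± 0.83 CPM at day 5. Notum, a deacylase that inactivates Wnt proteins, fell at both steps, with 84.7 ± 9.7 CPM at day 0, 20.5 ± 3.1 CPM at day 3 and 0.409 ± 0.11 CPM at day 5. None of the 4 secretion genes passed between Dox and control in edgeR or DESeq2, with 1 at an unadjusted p below 0.05 at day 0 and 1 at day 5. Wls had 158, 146 and 148 CPM in Dox and 118, 112 and 110 CPM in control at day 5, groups apart with a log2 change of 0.41 ± 0.16 (edgeR adjusted p = 0.19).

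Among 16 tested receptor and coreceptor genes, 11 rose and 3 fell between day 0 and day 3 in control, and 9 rose and 7 fell between day 3 and day 5. Over all genes 73.5% were called at the first step (37.2% higher) and 64.8% at the second (31.7% higher). Ror1, a receptor tyrosine kinase for Wnt5a, reached 47.2 ± 4.1 CPM at day 3, against 2.44 ± 1.2 CPM at day 0 (19.6-fold), and fell to 2.09 ± 0.075 CPM at day 5. The Frizzled genes Fzd1 and Fzd3 rose 13.8-fold and 7.97-fold by day 3, and Fzd3 and Fzd8 rose 8.18-fold and 7.65-fold from there to day 5. With Dox 0 of 16 passed in edgeR on each day, with log2 changes between -0.36 and 0.35 and 4, 1 and 2 genes at an unadjusted p below 0.05 at days 0, 3 and 5. DESeq2 called 0, 0 and 2 (Fzd8 and Fzd9). Of all 17795 genes, edgeR called 1.04%, 0.0169% and 4.74% on these days, and 2197, 432 and 2916 had an unadjusted p below 0.05. Of 8 tested R-spondin, Lgr, Rnf43 and Znrf3 genes, which set receptor turnover, 7 rose by day 3 in control. With Dox 0 passed on any day in edgeR or DESeq2, with 1 at an unadjusted p below 0.05 at day 0. Rspo1, an R-spondin, fell to 2.22 ± 0.26 CPM at day 5, against 11.5 ± 1.3 CPM at day 3 (5.18-fold).

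Of 8 tested secreted inhibitors 2 were called with Dox at day 5, in opposite directions, where 4.74% of all genes were called. Sfrp1, which binds Wnt proteins outside the cell, had 320, 332 and 345 CPM in Dox and 235, 206 and 221 CPM in control gastruloids. It rose by 0.59 ± 0.12 on the log2 scale (edgeR adjusted p = 0.0041) and kept its call in every omission of 1 library. Its relative Sfrp5 had 10.6, 3.29 and 3.23 CPM in Dox and 15.9, 16.5 and 14.1 CPM in control, with Dox replicate 1 between the other Dox libraries and the controls. It fell by 1.44 ± 0.32 (edgeR adjusted p = 0.012), and the call was lost without Dox replicate 2 (log2 -1.16, 0.081) or Dox replicate 3 (-1.15, 0.086). Without Dox replicate 1 the log2 change was -2.24 (edgeR adjusted p = 6.7e-06). The other 6 of 8 tested inhibitors did not pass. Of all 8, 3, 1 and 5 had an unadjusted edgeR p below 0.05 at days 0, 3 and 5. DESeq2 called 0, 0 and 2 (Sfrp1 and Sfrp5). Of all 17795 genes, 2197, 432 and 2916 had an unadjusted edgeR p below 0.05 on these days. Over the course in control, Sfrp1 fell 6.25-fold by day 3, and Sfrp5 rose 39.3-fold between day 3 and day 5.

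Inside the cell, 1 of 18 pathway core genes was called at day 0 and 0 at day 3 and day 5, where 1 and 4 had an unadjusted p below 0.05 and DESeq2 called 0. At day 0, 4 of the 18 had an unadjusted edgeR p below 0.05, and DESeq2 called 2, Dvl2 and Pygo2. Of all 17795 genes, edgeR called 1.04%, 0.0169% and 4.74% at days 0, 3 and 5. Its unadjusted p was below 0.05 for 2197, 432 and 2916 of all genes. Dvl2, a Dishevelled adaptor shared by the beta-catenin and polarity branches, had 114, 127 and 124 CPM in Dox and 137, 160 and 142 CPM in control cells at day 0, non-overlapping groups (log2 -0.27 ± 0.06, edgeR adjusted p = 0.03). Its call was lost without control replicate 2 (0.093) or Dox replicate 1 (0.079). Lef1, a nuclear partner of beta-catenin, rose 58.8-fold by day 3 in control, to 176 ± 6.1 CPM against 3.01 ± 1.6 CPM at day 0, and fell 7.74-fold by day 5.

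Of 19 tested beta-catenin target genes, 15 rose and 2 fell by day 3 in control, and 4 rose and 13 fell between day 3 and day 5. Of all genes, 37.2% rose and 36.3% fell at the first step, and 31.7% rose and 33.1% fell at the second. With Dox at day 0, Ccnd1 was higher and 2 targets were lower, Sp5 and Cdx1, so 3 of 19 were called against 1.04% of all genes. An unadjusted edgeR p below 0.05 was seen for 9, 1 and 6 of the 19 at days 0, 3 and 5. Over all 17795 genes the numbers were 2197, 432 and 2916. DESeq2 called 4 targets at day 0 (T, Cdx1, Cdx2 and Ccnd1), 0 at day 3 and 2 at day 5 (Cdx1 and Ccnd1). The Sp5 call (log2 -1.79, edgeR adjusted p = 0.042) was lost with DESeq2 (0.06), limma-voom (0.09) and day 0 fitted alone (0.81). It was also lost without control replicate 1 (0.16), control replicate 2 (0.11), Dox replicate 2 (0.15) or Dox replicate 3 (0.066), with log2 changes of -2.54 to -1.39 over the 6 omissions. Cdx1, a caudal-type homeobox gene of the posterior axis, averaged 12.8 ± 4.3 CPM in Dox and 40.2 ± 12 CPM in control cells (SD, n = 3 each). The day 0 calls of Cdx1 (edgeR adjusted p = 0.34) and Ccnd1 (0.57) were also lost with day 0 fitted alone. Both were kept in every omission of 1 library. At day 5 Myc, a growth regulator, fell to 15.2, 12.1 and 10.7 CPM in Dox gastruloids, against 31, 30.8 and 29.4 CPM in control gastruloids (log2 -1.26 ± 0.28, edgeR adjusted p = 0.01), a call lost without Dox replicate 2 (0.057) or Dox replicate 3 (0.082) and with DESeq2 (0.063). Ccnd1, encoding cyclin D1, had 201, 211 and 218 CPM in Dox and 156, 148 and 146 CPM in control at day 5 (0.49 ± 0.1, edgeR adjusted p = 0.0063). Axin2, the common feedback target, averaged 60.5 ± 2.1 CPM in Dox and 57.6 ± 2.5 CPM in control at day 5 (SD, n = 3 each) and did not pass on any day. With Dox the list's median log2 change was -0.43 in day 0 cells, and -0.11 and 0.03 in day 3 and day 5 gastruloids, against -0.001, 0.0 and 0.003 over all genes.

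Of 14 planar cell polarity genes, in the branch through which Wnt5a and Wnt11 act, Vangl1 and Celsr1 fell and Celsr3 rose with Dox at day 5. These are 3 of 14, where 4.74% of all genes were called, 2.39% higher and 2.34% lower. At an unadjusted edgeR p below 0.05 there were 3, 0 and 6 of 14 at days 0, 3 and 5. DESeq2 called 1 at day 0 (Dvl2), 0 at day 3 and the same 3 at day 5. Of all 17795 genes, 2197, 432 and 2916 had an unadjusted edgeR p below 0.05 at days 0, 3 and 5. Vangl1, a core polarity membrane protein, had 20.4, 16 and 16.1 CPM in Dox and 23.8, 25.4 and 25.8 CPM in control gastruloids (log2 -0.51 ± 0.09, edgeR adjusted p = 0.0014), and it passed without each library in turn. Celsr1, a polarity cadherin, had 151, 106 and 112 CPM in Dox and 173, 156 and 181 CPM in control (-0.47 ± 0.12, edgeR adjusted p = 0.023). Its relative Celsr3 had 12.5, 9.7 and 10.2 CPM in Dox and 8.4, 7.19 and 8.21 CPM in control (0.45 ± 0.12, edgeR adjusted p = 0.042). The calls of Celsr1 and Celsr3 were lost in 4 and 5 of 6 omissions of 1 library, with adjusted p up to 0.15 and 0.2. At day 3 edgeR and DESeq2 called no gene of the 8 pathway lists with Dox.

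**Figure D4:**
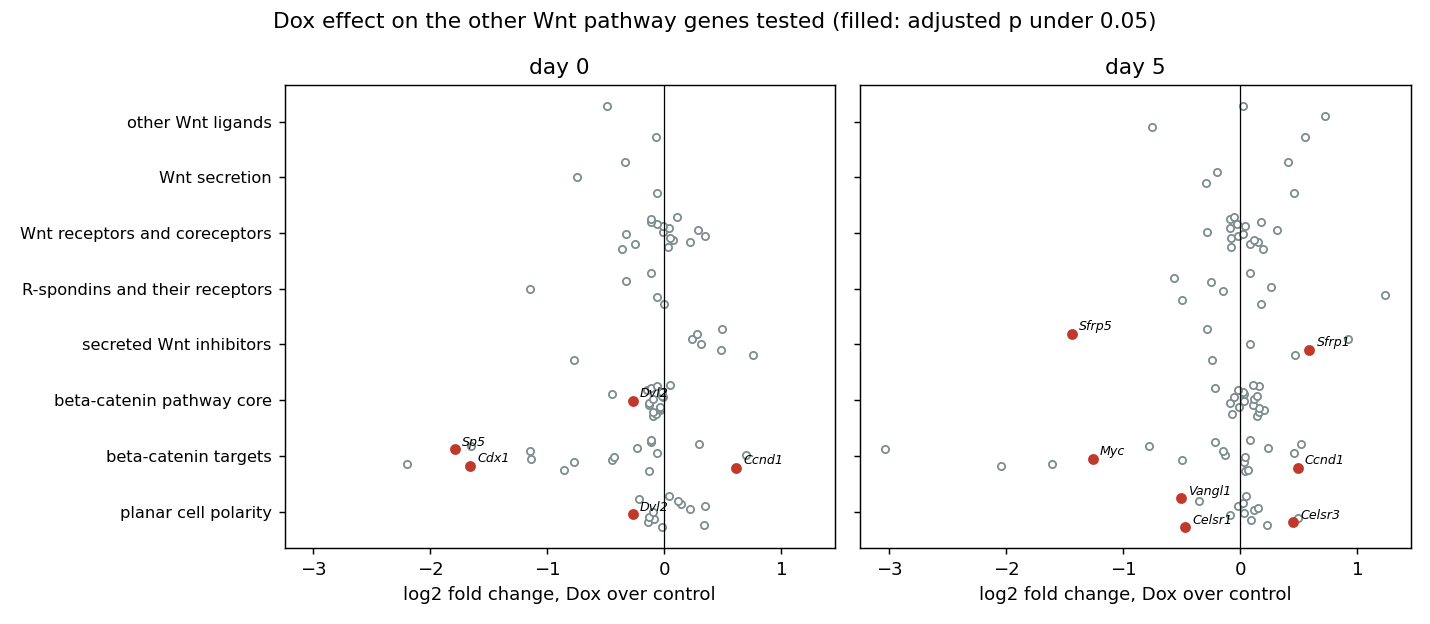
Log2 fold change of Dox over control at day 0 and day 5 for each tested gene of 8 Wnt pathway lists (1 point per gene; Dvl2, Lgr5, Lef1 and some others stand on more than 1 list), filled and named where the edgeR adjusted p was under 0.05. Genes with no count in 1 of the groups, or at most 3 counts in any library, are left out. Secretion, receptor and R-spondin genes have no filled point, and Sfrp1 (0.59) and Sfrp5 (-1.44) lie on opposite sides at day 5.

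Among 10451 other genes with enough signal, the profile of each well-measured ligand over the 18 libraries was matched by the Pearson correlation of log2(CPM + 1), given as a description. The points share libraries and fall into 3 days, so high values are common. Nearest to Wnt3 were Snph (r = 0.997), Sertad4 and Fst, the last encoding follistatin. Nearest to Wnt8a were Epha1 (0.997), Rxrg and Esrp1. Nearest to Wnt4 were Hes3 (0.996), Hoxaas2 and Ndnf, and nearest to Wnt5a were Atoh8 (0.994), Rflnb and Gas1. Atoh8 averaged 8.88 CPM in Dox and 16.7 CPM in control at day 5, and Gas1 190 and 251 CPM. Both were picked on these same libraries, so their values lend the Wnt5a result no support. Hes3 averaged 164 CPM in Dox and 96.3 CPM in control at day 5, where Wnt4 averaged 3.52 and 3.27 CPM. Among the genes nearest to Wnt7b were Paqr8 (0.989) and Lpar1 (0.988). Wnt11 was closest to Nfx1 (0.986), Phykpl and Prob1, and Wnt9a to Prkag2 (0.969), Fgfbp3 and Rps6ka3. For Wnt5b the closest gene was Fbxl14 (0.986), the gene inside its span, followed by Adamts15.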

How the data were processed

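RSEM tables of 18 libraries were used, 1 per library. The authors deposited expected counts, TPM and FPKM per gene. Per the submitters' processing notes, Trimmomatic, STAR 2.7.10a, RSEM 1.3.3, DESeq2 1.38.2 and GRCm38 were used. The strand setting and annotation release are not given in the sources used here. The deposited expected counts were rounded (6.54% to 7.49% of values were not whole) and tested with edgeR 4.0.16 in R 4.3.3. The settings were TMM factors (0.894 to 1.063), filterByExpr by group with a minimum count of 10, 1 mean for each of 6 groups, the quasi-likelihood F test, and Benjamini-Hochberg adjusted p under 0.05 over 17795 genes. The SE is the log2 change divided by the root of F. The deposited TPM served to compare genes, as computed by the authors, and FPKM were not used. Of the 55401 IDs, 55141 matched a symbol.

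The labels give the replicate number as a batch, so numbers pair Dox and control. Same-numbered libraries deviated together most at day 0 (r 0.206 to 0.331, others -0.252 to 0.055), less at day 3 (0.01 to 0.036) and day 5 (0.022 to 0.051). No pair of replicates matched within sampling noise (median chi-square per gene of 0.75 or more). The alternatives were a replicate block, DESeq2 1.42.0, limma-voom (limma 3.58.1), other scalings and filters, each day alone, TPM and leaving out each library. The code was tested on simulated data. Members, lists and the naming rule (all ligands, and from each list the largest changes past the threshold) were chosen with earlier results of these data known. Fbxl14 was added as the closest gene to Wnt5b, and Wls, Wnt7a, Wnt1 and Axin2 under Dox after their values were seen. Counting intervals and limits cover counting error only. Some genes near a ligand's profile are not reported here.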

Additional observations from a re-analysis of the deposited data

Results flagged for a closer look

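In 3 genes of the Wnt pathway lists the Dox effect differed between days by edgeR's test of the difference itself. For Vangl1 the effect at day 5 minus that at day 3 was -0.55 ± 0.12 on the log2 scale (edgeR adjusted p = 0.036), lost in 10 of 12 omissions of 1 library (adjusted p up to 0.14). For Sfrp5 the effect at day 5 minus that at day 0 was -1.92 ± 0.51 (edgeR adjusted p = 0.046), lost in 9 of 12 omissions (up to 0.11). For Dvl2 the effect at day 5 minus that at day 0 was 0.3 ± 0.08 (edgeR adjusted p = 0.048), lost in 8 of 12 omissions (up to 0.12).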

How the results depend on the processing

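Wnt4 at day 0, Wnt6 and Wnt11 at day 5, Wnt7b at day 3 and Wnt8a at day 0 had too few counts to show a difference between Dox and control.

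With the replicate block no Wnt ligand call changed in any comparison. The number of ligands called at day 0 between Dox and control, 1, was 0 with limma-voom (Wnt5b adjusted p 0.087), with day 0 fitted alone (0.77) and with day 0 fitted alone with the block (0.1), and 0 to 1 when 1 library was left out. At day 5 it was 2, and 0 to 1 when 1 library was left out. For the Dox effect at day 5 minus day 3 it was 0, but 1 (Wnt8a) with DESeq2 and without the count filter. Between days in control, 8 to 9 and 9 to 9 ligands were called when 1 library was left out.

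The direction reversed, never past the threshold, for Wnt3a at day 3 against day 0 in Dox with library size alone (0.12) and for Wnt11 in the effect at day 5 minus day 0 with limma-voom (-0.2). It also reversed in these ranges when 1 library was left out. At day 0 with Dox, Wnt3a ran from -0.53 to 0.05, Wnt6 from -0.15 to 0.57 and Wnt8a from -4.46 to 0.53. At day 3 with Dox, Wnt4 ran from -0.37 to 0.23, Wnt5a from -0.3 to 0.07, Wnt7b from -0.55 to 0.21, Wnt9a from -0.31 to 0.22 and Wnt11 from -0.27 to 0.19. Wnt3a ran from -0.19 to 0.29 at day 5 against day 3 in control and from -0.29 to 0.26 at day 3 against day 0 in Dox. In the differences between Dox effects, Wnt6 ran from -0.08 to 0.65 and Wnt8a from -0.69 to 4.3 (day 3 minus day 0), Wnt4 from -0.12 to 0.48 (day 5 minus day 3) and Wnt11 from -1.13 to 0.74 (day 5 minus day 0). The cause was not tested.

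Counts over all genes moved more. At day 0 (185) they were 504 with DESeq2, 549 without the filter, 313 with the block, 3 with day 0 alone, 137 with the block added to that and 76 to 412 without 1 library, the lowest without Dox replicate 2. At day 3 (3) they were 6, 25 without the filter, 12 with day 3 alone and 98 with the block added to that. At day 5 (843) they were 1273 with DESeq2, 1628 with day 5 alone, 2658 with the block added to that and 410 to 732 without 1 library. For the differences between Dox effects, DESeq2 called 117, 322 and 992 against 10, 146 and 584. Library size alone moved the median log2 change of all genes at day 3 against day 0 in control to 0.165, against 0.016.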
